A study of Homo sapiens with 4 samples.

Results

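Neutrophil granule and myeloid effector genes were followed across the 4 arrays of a study of azacytidine (AZA) in myelodysplastic cells. The 10 genes were MPO, ELANE, AZU1, PRTN3, CTSG, LYZ, LTF, CAMP, S100A8 and S100A9, and their probes were every gene probe of the array design that carried one of these names. Of the 10 genes, 9 had a probe, each with 1 probe printed as 1 spot, among 43311 gene names on the arrays, and LYZ, the gene of lysozyme, was not analysed here. CTSG, the gene of cathepsin G, was the 1 member with signal well above background on all 4 arrays. Its signal was more than 2-fold lower in the AZA-resistant line than in its parent with either treatment. Within the resistant line it was more than 2-fold lower with AZA than with vehicle. In the parental line the fall with AZA was 2.05-fold, at the 2-fold limit, and was short of 2-fold under some other ways of scaling the arrays. PRTN3 and S100A8 were just above background in the parental line only, and the other 6 members were not well above background on any array.

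Neutrophils store their weapons in granules that are built in sequence as the cell matures in the bone marrow. Azurophil granules, made at the promyelocyte stage, hold myeloperoxidase and the serine proteases elastase, proteinase 3, cathepsin G and their inactive relative azurocidin. Specific granules follow with lactoferrin and the precursor of the antimicrobial peptide LL-37, and the calcium-binding pair S100A8 and S100A9 fills the cytosol of mature neutrophils and monocytes. Transcription of the azurophil genes is driven by factors such as C/EBPα, PU.1 and MYB and is largely switched off once the granules are made.

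MDS-L cells derive from a patient with myelodysplastic syndrome, and MDS-L/CDA is its derivative transduced with CDA, the gene of cytidine deaminase, an enzyme that inactivates cytidine analogues. AZA is a cytidine analogue that traps DNA methyltransferases and lowers DNA methylation. The 4 groups were MDS-L with vehicle (0.1% DMSO), MDS-L with 1 μM AZA, MDS-L/CDA with vehicle and MDS-L/CDA with 1 μM AZA, all for 72 h. In the labels, the medium of all 4 held 10% fetal bovine serum, 50 μM mercaptoethanol and IL-3 at 20 ng/mL, where the study's methods give 10 ng/mL IL-3. Total RNA of each group was hybridized in 1 colour to 1 Agilent array, and all 4 arrays lay on 1 slide. With 1 array per group there was no replicate check, so no test was made for any difference, and the errors given are the scanner software's own estimate for a spot. Each group also had its own position on the slide, so group and position cannot be told apart. For MDS-L with AZA and MDS-L/CDA with vehicle, 1 label field named the opposite treatment, while the title, description and source of both samples gave the treatments used here. One field also gave the dose as millimolar, where the others and the methods gave 1 μM. The probe for CDA itself did not rise clearly above background in either line, with signals of 5.53 and 4.99 in MDS-L and 4.48 and 5.42 in MDS-L/CDA (vehicle and AZA), so it did not check the labels of the lines. Whether this probe lies within the transduced sequence is not given in the sources used here.

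Signal here means the background-subtracted brightness of a spot. The 75th percentile of signal over the 58185 probes was 52.5 and 52.9 on the MDS-L arrays and 40.8 and 37.3 on the MDS-L/CDA arrays, and every ratio between arrays was taken after dividing by it. The scanner software called 35.1% and 36.5% of probes well above background on the MDS-L arrays and 32.6% on each MDS-L/CDA array. The lowest signal so called was between 9.98 and 11.1, and a probe without this call gives only an upper bound of its level. No spot was saturated. Among the 263 to 274 probes with repeat spots well above background, the median SD between spots of one array was 0.13 to 0.23 on the log2 scale. A gene was counted as higher or lower in a comparison when its ratio, or the bound of that ratio where 1 of the arrays was not well above background, reached 2-fold.

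The design assigns each probe, 60 bases long, to exons of the named gene, and the hg19 positions show how the members cluster. AZU1 (chr19:831799-831858), PRTN3 (chr19:847827-847886) and ELANE (chr19:853356-855575) are neighbours on chromosome 19, all on the plus strand, and the ELANE probe extends over 2220 bases of genome and so crosses an intron. The sequences of these probes, as the files give them, are shown because these 3 protease genes lie next to each other and only PRTN3 gave a signal above background.
AZU1 probe: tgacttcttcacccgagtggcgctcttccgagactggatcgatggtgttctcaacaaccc
PRTN3 probe: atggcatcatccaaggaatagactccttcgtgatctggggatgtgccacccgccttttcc
ELANE probe: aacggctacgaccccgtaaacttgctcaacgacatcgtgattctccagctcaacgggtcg
The CTSG probe lies apart from them on the minus strand of chr14:25042788-25042847, in the cluster that also holds the granzyme genes GZMH and GZMB and the mast cell chymase gene CMA1. MPO lies at chr17:56347868-56347927, LTF at chr3:46477720-46479489 and CAMP at chr3:48266856-48266915, and S100A8 (chr1:153362548-153362607) and S100A9 (chr1:153330874-153333143) share the S100 cluster of chromosome 1. The LTF and S100A9 probes also cross an intron.

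The promoters of CTSG and PRTN3 are shown because these are the azurophil genes with measured signal. They come from RefSeq (GRCh38.p14), whose table had entries for 7 of the 10 members, with 11 start sites in all. Each is the 250 bases before the start site, read on the gene's own strand. Capitals mark the core letters bound by MYB (AACNG) and PU.1 (GAGGAA) and a C/EBP pattern (TTGCNNAA). Both strands were searched, so a match on the opposite strand is printed as its reverse complement.
CTSG, chr14:24576251-24576500, minus strand: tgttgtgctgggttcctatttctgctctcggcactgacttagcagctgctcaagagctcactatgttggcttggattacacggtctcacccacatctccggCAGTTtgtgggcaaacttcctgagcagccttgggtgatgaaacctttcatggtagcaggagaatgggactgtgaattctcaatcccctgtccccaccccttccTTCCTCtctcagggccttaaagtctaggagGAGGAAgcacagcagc
PRTN3, chr19:840749-840998, plus strand: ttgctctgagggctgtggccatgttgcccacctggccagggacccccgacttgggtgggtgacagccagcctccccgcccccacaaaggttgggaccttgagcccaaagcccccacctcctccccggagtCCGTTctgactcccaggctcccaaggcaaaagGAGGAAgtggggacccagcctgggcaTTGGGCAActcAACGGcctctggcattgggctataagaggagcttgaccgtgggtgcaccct
CTSG held 2 GAGGAA matches, which begin 46 and 16 bases before the start, and 1 AACNG match. PRTN3 held 1 GAGGAA, 1 TTGCNNAA and 2 AACNG matches. GAGGAA was present at 9 of the 11 member start sites and in 23.6% of all 35116 promoters of this length, AACNG at 10 and in 70.6%, and TTGCNNAA at 3 and in 9.05%. LTF and S100A8 enter with several start sites each, every LTF one held GAGGAA, and the 3 windows of S100A8 overlap. The 11 are therefore not independent, and a match describes letters, not binding. CpG dinucleotides, the sites that DNA methyltransferases modify, were below the median of all promoters in each of these windows. CTSG held 3 CpGs, PRTN3 6, AZU1 7, S100A8 2, S100A9 4 and CAMP 1, and the LTF start sites held between 2 and 10, against a median of 11 over all promoters. Such counts were common. Of all promoters, 29.3% held as few CpGs as CTSG or fewer, and 41.1% as few as PRTN3. The share was 14.7% for CAMP and 49.7% for the LTF start site with 10. No methylation was measured on these arrays.

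Myeloperoxidase, the azurophil enzyme that makes hypochlorous acid, defines the granulocyte lineage in diagnosis. The MPO signal was 2.32 in MDS-L with vehicle, 6.50 in MDS-L with AZA, 2.51 in MDS-L/CDA with vehicle and 2.43 in MDS-L/CDA with AZA. All 4 values were not well above background, so the array with the highest value, MDS-L with AZA, gave no level either and no fold is given. Elastase, the protease that degrades matrix and microbial proteins, gave ELANE signals of 2.30, 2.35, 2.53 and 2.20 in the same order. Azurocidin, which has lost its protease activity but attracts monocytes, gave AZU1 signals of 2.10, 2.17, 2.36 and 3.64. Both genes were not well above background on all 4 arrays, and their values on the 4 arrays overlapped within the scanner error.

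PRTN3 encodes proteinase 3, the autoantigen of anti-neutrophil antibodies in vasculitis. Its signal was 12.6 ± 2.80 (scanner error) in MDS-L with vehicle and 15.9 ± 3.16 with AZA, both called well above background, and 11.04 ± 3.27 and 10.5 ± 3.12 in MDS-L/CDA, both not well above background. The AZA/vehicle ratio in MDS-L was 1.25, or 0.33 on the log2 scale with an error of 0.43, so the 2 arrays differed by less than that error. Between the lines, PRTN3 gave no fold with vehicle, and with AZA its bound was a ratio of at most 0.982. The 4 signals all lay close to the lowest signal called well above background, and the line difference in this call was not larger than the errors of the signals.

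CTSG encodes cathepsin G, a chymotrypsin-like protease of azurophil granules that is also found in a class of human mast cells. The signal was 596 ± 59.6 in MDS-L with vehicle, 293 ± 29.4 in MDS-L with AZA, 216 ± 21.7 in MDS-L/CDA with vehicle and 74.5 ± 7.80 in MDS-L/CDA with AZA. Divided by the 75th percentile of each array, these were 11.3, 5.53, 5.29 and 2.00. The highest array was MDS-L with vehicle, MDS-L with AZA and MDS-L/CDA with vehicle were neighbours in the order, and MDS-L/CDA with AZA was lowest. The scaled levels spanned 5.67-fold in all, and each array was called well above background.

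**Figure D1:**
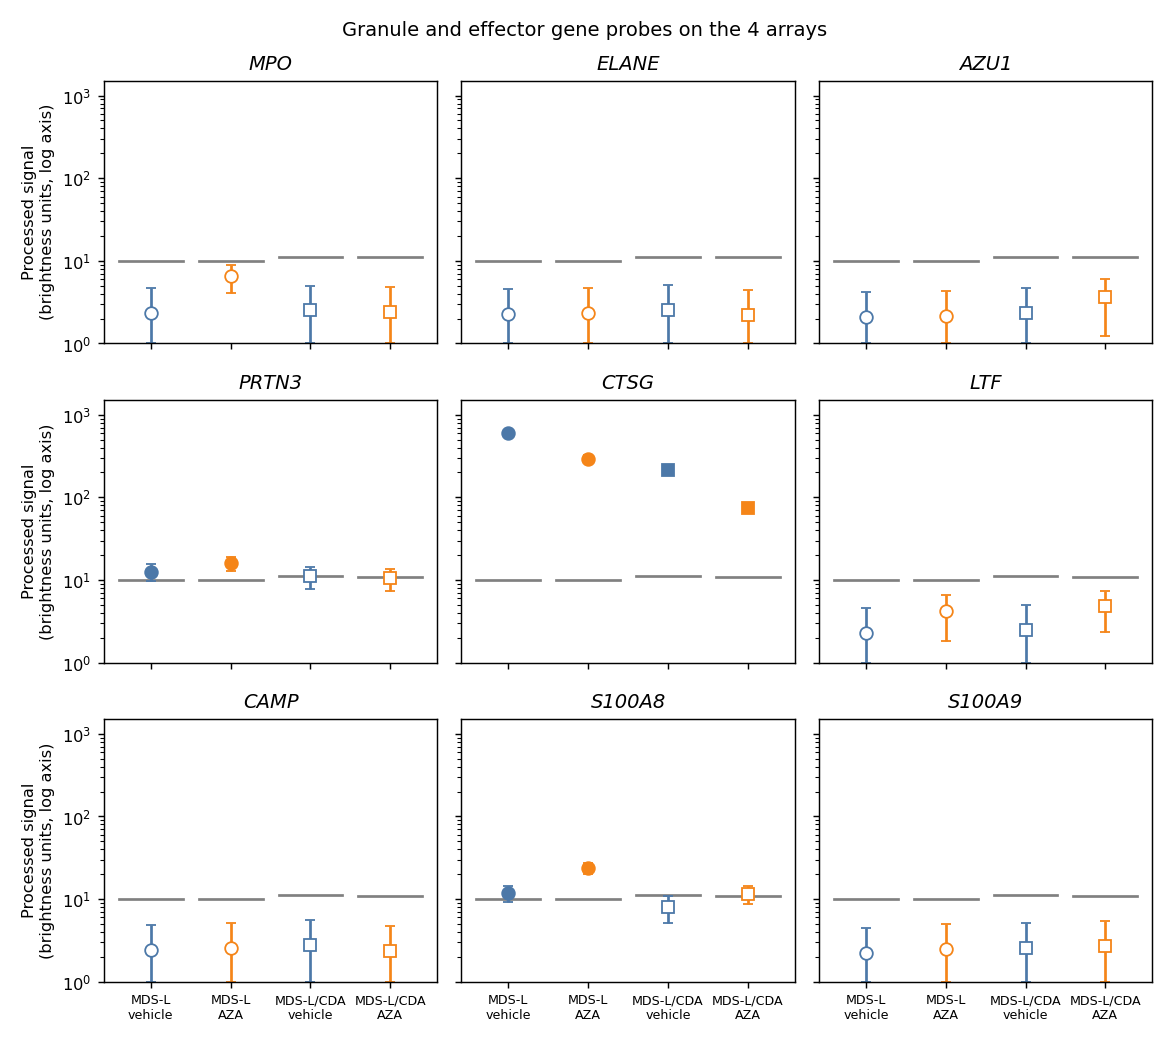
Signal of the 9 members with a probe on the 4 arrays (log axis, arbitrary brightness units), with filled symbols for spots well above background, open symbols for the others, vertical bars for the scanner error (cut at 1) and grey lines for the lowest signal called well above background on each array. CTSG lies above the grey line on all 4 arrays, from 596 down to 74.5, PRTN3 and S100A8 lie near it, and the other 6 members lie between 2.10 and 6.50.

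The CTSG signal of MDS-L was lower with AZA than with vehicle at a ratio of 0.488, or 2.05-fold (log2 -1.03, error 0.20). CTSG was the 1 member of 3 tested that was lower there, and 0 were higher, against 6.03% of 17172 genes tested that were at least 2-fold lower and 6.73% that were at least 2-fold higher. A ratio as low or lower was found for 798 of the 15104 genes measured on both arrays, or 5.28%. The median log2 ratio of those genes was -0.16, so relative to it CTSG was lower by a log2 of -0.88. The fold therefore depends on how arrays are scaled, and it was short of 2-fold under 4 of 6 other scalings or background corrections.

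In MDS-L/CDA, CTSG was lower with AZA at a ratio of 0.378, or 2.65-fold (log2 -1.40, error 0.21). It was the 1 member tested there and was lower, with 0 higher, where 3.07% of 15393 genes were at least 2-fold lower and 2.53% at least 2-fold higher. Of 14137 measured genes, 118, or 0.835%, had a ratio as low or lower, and the median log2 ratio was 0.01. The AZA ratio of MDS-L/CDA differed from that of MDS-L by a log2 of -0.37 with an error of 0.29, and with 1 array per group this difference has no test. CTSG was 1 of 106 genes, 0.759% of the 13962 well above background on all arrays, that were at least 2-fold lower with AZA in both lines, which share no array in these comparisons. Another 123 genes, 0.881%, were at least 2-fold higher in both.

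**Figure D2:**
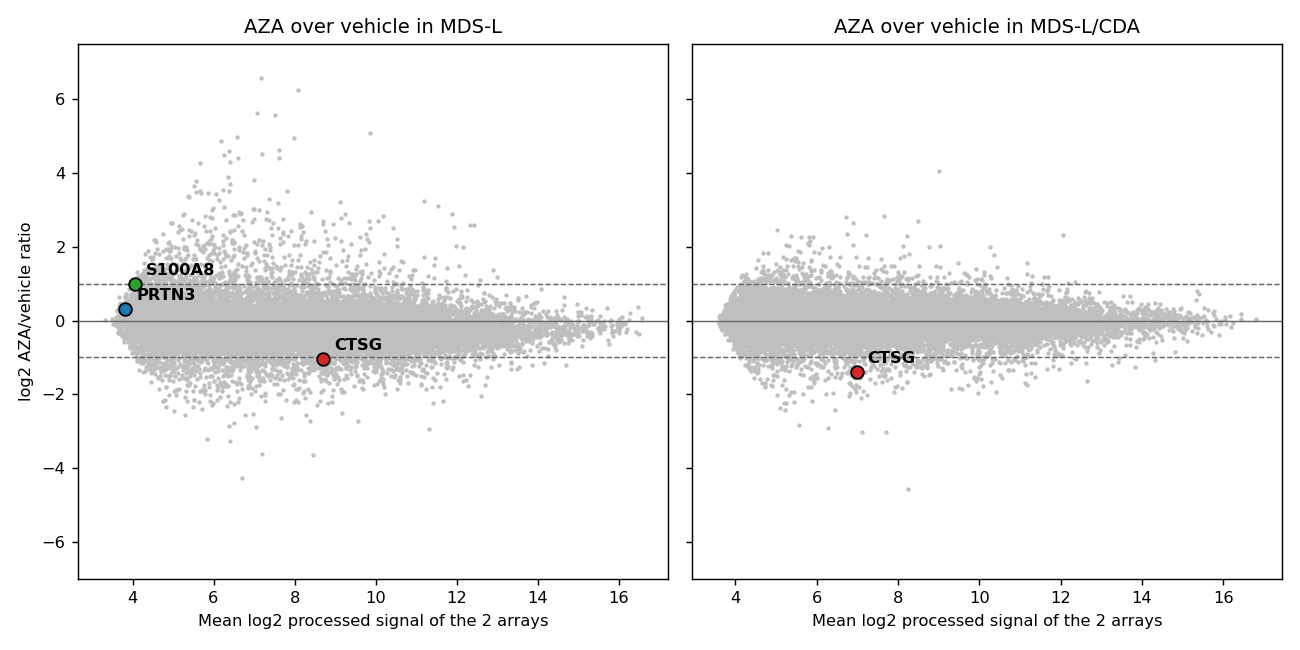
The log2 AZA/vehicle ratio (vertical axis) against the mean log2 signal of the pair of arrays (horizontal axis) for genes well above background on both arrays of MDS-L (left) or MDS-L/CDA (right), with dashed lines at 2-fold. CTSG lies at the lower 2-fold line in MDS-L (-1.03) and below it in MDS-L/CDA (-1.40), while PRTN3 (0.33) and S100A8 (0.98) sit at the dim end in MDS-L and have no measured ratio in MDS-L/CDA.

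The resistant line also had less CTSG signal than its parent with either treatment. With vehicle, the MDS-L/CDA over MDS-L ratio was 0.467, or 2.14-fold lower (log2 -1.10, error 0.20). CTSG was the 1 member lower of 3 tested and 0 were higher, against 2.64% lower and 1.97% higher among 16015 genes. As low a ratio was found for 242 of 14510 measured genes, or 1.67%. With AZA, the ratio was 0.361, or 2.77-fold lower (log2 -1.47, error 0.21). Again 1 member of 3 tested was lower and 0 were higher, against 5.23% lower and 5.43% higher among 16739 genes. Of 14542 measured genes, 233, or 1.60%, were as low. With either treatment, PRTN3 and S100A8 counted as tested by their MDS-L signal alone. That signal was too dim for a bound to reach 2-fold lower, so only CTSG could be called between the lines. These comparisons share arrays with those of AZA against vehicle, so the 4 ratios are not independent values. MDS-L/CDA is a single derived line, and CDA activity cannot be told apart from any other difference between the lines. In these bulk samples, fewer CTSG-expressing cells and less CTSG RNA per cell cannot be told apart.

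**Figure D3:**
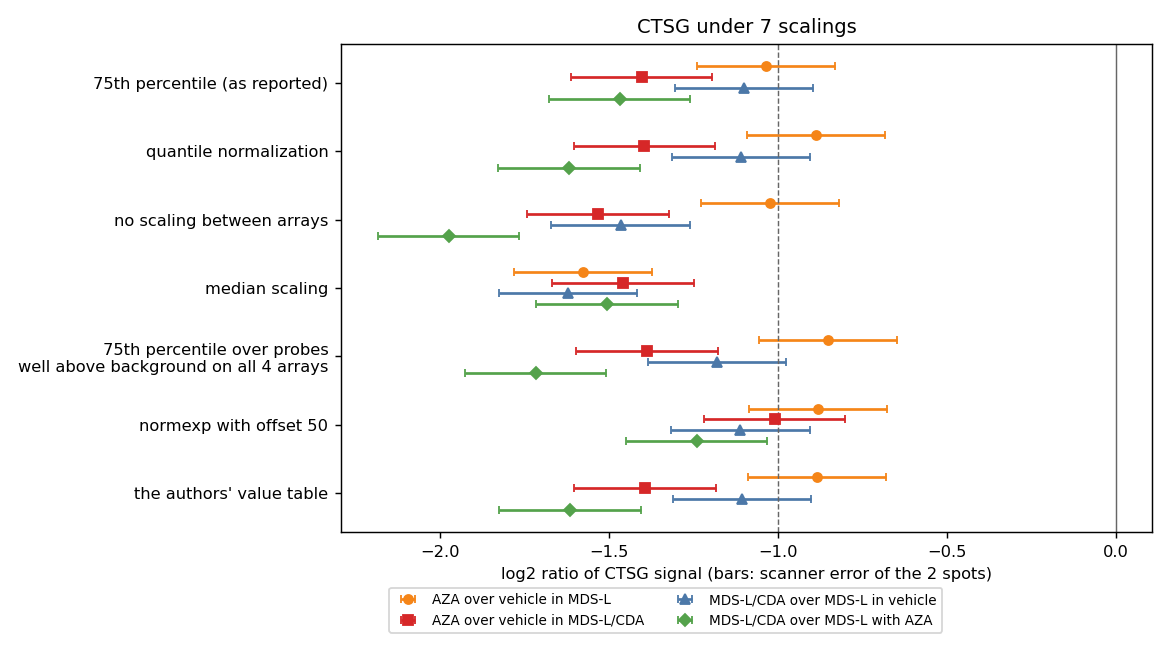
CTSG log2 ratio (horizontal axis) in the 4 comparisons under 7 ways of scaling or background correction (vertical axis), with bars for the scanner error of the spots and a dashed line at 2-fold lower. All values are below 0, and the AZA ratio in MDS-L lies between -1.58 and -0.85 on both sides of the dashed line, while the other 3 comparisons stay past it.

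The cytosolic and secondary-granule members were dim. S100A8, a subunit of calprotectin, gave a signal of 11.9 ± 2.63 in MDS-L with vehicle and 23.7 ± 3.46 with AZA, both well above background, and of 8.04 ± 2.96 and 11.6 ± 2.89 in MDS-L/CDA, both not well above background. In MDS-L the AZA/vehicle ratio was 1.97, or 0.98 on the log2 scale with an error of 0.38, just short of the 2-fold limit. Of the 4 arrays, MDS-L with AZA was the highest. With AZA the MDS-L/CDA signal, taken at its own value, was 1.44-fold lower than that of MDS-L (log2 -0.53, error 0.42). The S100A8 signals of MDS-L with vehicle and MDS-L/CDA with AZA overlapped within their errors.

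S100A9, the partner of S100A8 in calprotectin, was not well above background on all 4 arrays, with signals of 2.25, 2.46, 2.54 and 2.72. LTF, the gene of the iron-binding protein lactoferrin, gave 2.31, 4.22, 2.50 and 4.84, and CAMP, the gene of the LL-37 precursor, gave 2.43, 2.58, 2.77 and 2.34. LTF and CAMP were likewise not well above background on all 4 arrays. The count of members well above background was thus 3 of 9 on each MDS-L array and 1 of 9 on each MDS-L/CDA array. Of all probes, 35.1% and 36.5% were so called on the MDS-L arrays and 32.6% on each MDS-L/CDA array. PRTN3 and S100A8 make the difference between the lines. On the MDS-L/CDA vehicle array PRTN3 (11.04) lay just under the lowest signal so called there (11.1).

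Within 300 kb of CTSG, 20 other genes had a probe, of which 11 were well above background on at least 1 array and 6 on all 4. These 6 stayed within 2-fold with AZA in both lines. Not all of those well above background on fewer arrays did so. Among them, named after their values were seen, ADCY4 had AZA ratios of 2.53 in MDS-L and at least 2.20 in MDS-L/CDA. LTB4R gave ratios or bounds of 0.543 in MDS-L and 2.27 in MDS-L/CDA. CBLN3 had a ratio of at most 0.337 in MDS-L and none in MDS-L/CDA. LTB4R2 and GZMB did not reach 2-fold with AZA where they had a ratio. CMA1 and GZMH were dim on all 4 arrays, and GZMB, a granzyme of cytotoxic lymphocytes, was well above background on the MDS-L/CDA vehicle array alone (17.4). Near PRTN3, 22 of 32 genes were well above background on all 4 arrays, including CFD, the gene of complement factor D, which lies 15420 bases beyond the PRTN3 probe and gave 662, 498, 614 and 451. PRSS57, which encodes a further serine protease of azurophil granules, lies 162279 bases on the other side. It was named after its values were seen, and its signals were 12166, 10736, 10379 and 9486, with AZA ratios of 0.876 in MDS-L and 1.00 in MDS-L/CDA. CFD and PRSS57, near the dim genes ELANE and AZU1, were thus measured on every array and stayed within 2-fold with AZA. Most but not all measured genes of this window did so. Named after their values were seen, GZMM had AZA ratios of 5.35 in MDS-L and 2.25 in MDS-L/CDA, and WDR18 of 0.464 and 0.490. POLR2E had 0.130 in MDS-L and 2.16 in MDS-L/CDA.

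The shares of all genes given above for AZA in each line are the background for the counts that follow. The list of other azurophil granule genes held 13 genes, 10 had a probe and 7 were tested in MDS-L, of which 2 rose, 0 fell and 5 stayed within 2-fold. SRGN, the proteoglycan that binds proteases in the granule, had signals of 202, 633, 124 and 299, a 3.11-fold rise with AZA in MDS-L and a 2.63-fold rise in MDS-L/CDA. MS4A3, a membrane protein of granulocyte progenitors, rose from 16.1 to 364 in MDS-L, or 22.5-fold, and did not reach the background limit in MDS-L/CDA (2.42 and 2.29). CFD had ratios of 0.746 and 0.803, and CD63, a granule membrane protein, of 1.32 and 1.07. In MDS-L/CDA, 1 of 5 tested rose and 0 fell. CTSG and SRGN thus moved in opposite directions with AZA in both lines.

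Specific and gelatinase granule genes were mostly dim, with 12 of 16 not well above background on any array. Of the 4 tested in MDS-L, 2 rose with AZA and 0 fell, and of the 3 tested in MDS-L/CDA, 2 rose and 0 fell. MMP9, gelatinase B, had signals of 44.8, 243, 25.9 and 77.5, a rise of 5.39-fold in MDS-L and of 3.27-fold in MDS-L/CDA. TCN1, the vitamin B12 carrier haptocorrin, had signals of 26.4, 224, 5.61 and 29.9, a rise of 8.44-fold in MDS-L and of at least 2.95-fold in MDS-L/CDA. MMP25, a membrane-bound metalloproteinase, and PTX3, a soluble pattern recognition protein, stayed within 2-fold in MDS-L, at 1.23 and 1.36. The rises of MMP9 and TCN1 stood beside LTF and CAMP, members from specific granules, which had no level on any array.

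Among 9 other S100 genes, 7 were tested in MDS-L, of which 4 rose and 0 fell, whereas 0 of 5 passed 2-fold in either direction in MDS-L/CDA. S100P rose 5.77-fold in MDS-L, from 1636 to 9518, and had a ratio of 1.26 in MDS-L/CDA. S100A6 was at least 9.13-fold higher with AZA in MDS-L and was not well above background on the other 3 arrays. S100A11 and S100A13 rose 2.38-fold and 2.85-fold in MDS-L, with ratios of 1.52 and 1.33 in MDS-L/CDA. S100A6 and S100A13 lie in the same cluster as S100A8, 144707 and 228737 bases away. These genes had no test of the line difference.

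Inhibitors of granule proteases and cathepsins gave 1 gene higher and 0 lower of 7 tested in MDS-L, and 1 higher and 0 lower of 6 in MDS-L/CDA. CSTA, the cysteine protease inhibitor cystatin A, was 2.74-fold higher with AZA in MDS-L (log2 1.46, error 0.39). Its vehicle signal there, 10.4, was not well above background and was taken at its own value. CST7, cystatin F, had ratios of 1.74 in MDS-L and 2.57 in MDS-L/CDA. CST3 had ratios of 1.69 and 1.42, and CSTB of 0.875 and 0.755. Subunits of the phagocyte NADPH oxidase, which feeds hydrogen peroxide to myeloperoxidase, were measured in part. CYBB, its catalytic subunit, named after its values were seen, was dim on all 4 arrays like MPO, with signals of 2.22, 2.29, 2.36 and 2.19. Of the 4 subunits tested and reported here, 2 rose with AZA in each line. NCF1 and NCF4 were those subunits (4.54-fold and 2.30-fold in MDS-L, 2.21-fold and 2.64-fold in MDS-L/CDA). NCF1 has near-identical pseudogenes that its probe may also detect. RAC2, the GTPase of the complex, had ratios of 1.40 and 1.07 by its brightest probe. Its other probes gave log2 ratios of 0.40 and 0.27, and of -0.69 and -0.19.

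Receptors of mature neutrophils were sparse. Of 5 tested in MDS-L, 2 rose and 0 fell, and of 4 in MDS-L/CDA, 0 passed. FPR2, a formyl peptide receptor, and ITGAM, the integrin CD11b, were each at least 2.09-fold higher with AZA in MDS-L. CSF3R, the receptor of the granulocyte growth factor G-CSF, had signals of 388, 219, 27.5 and 22.9, with AZA ratios of 0.560 and 0.914. Like CTSG, CSF3R was lower in MDS-L/CDA than in MDS-L with vehicle, by a log2 of -3.46.

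The transcription factors of granule genes were measured on all 4 arrays for 8 of 10 genes. In MDS-L 1 fell and 0 rose with AZA, and in MDS-L/CDA 0 passed 2-fold. GFI1, a repressor needed for neutrophil differentiation, had signals of 947, 473, 470 and 350, a fall of 2.02-fold in MDS-L, at the 2-fold limit, with a ratio of 0.815 in MDS-L/CDA. CEBPA, which encodes C/EBPα, had signals of 6567, 3982, 5169 and 3449, with ratios of 0.602 and 0.730. MYB had ratios of 0.734 and 0.902, and CEBPB, the factor of emergency granulopoiesis, of 1.78 and 1.01. The median log2 ratio of the 8 was -0.28 in MDS-L and -0.11 in MDS-L/CDA, against -0.16 and 0.01 over all measured genes.

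**Figure D4:**
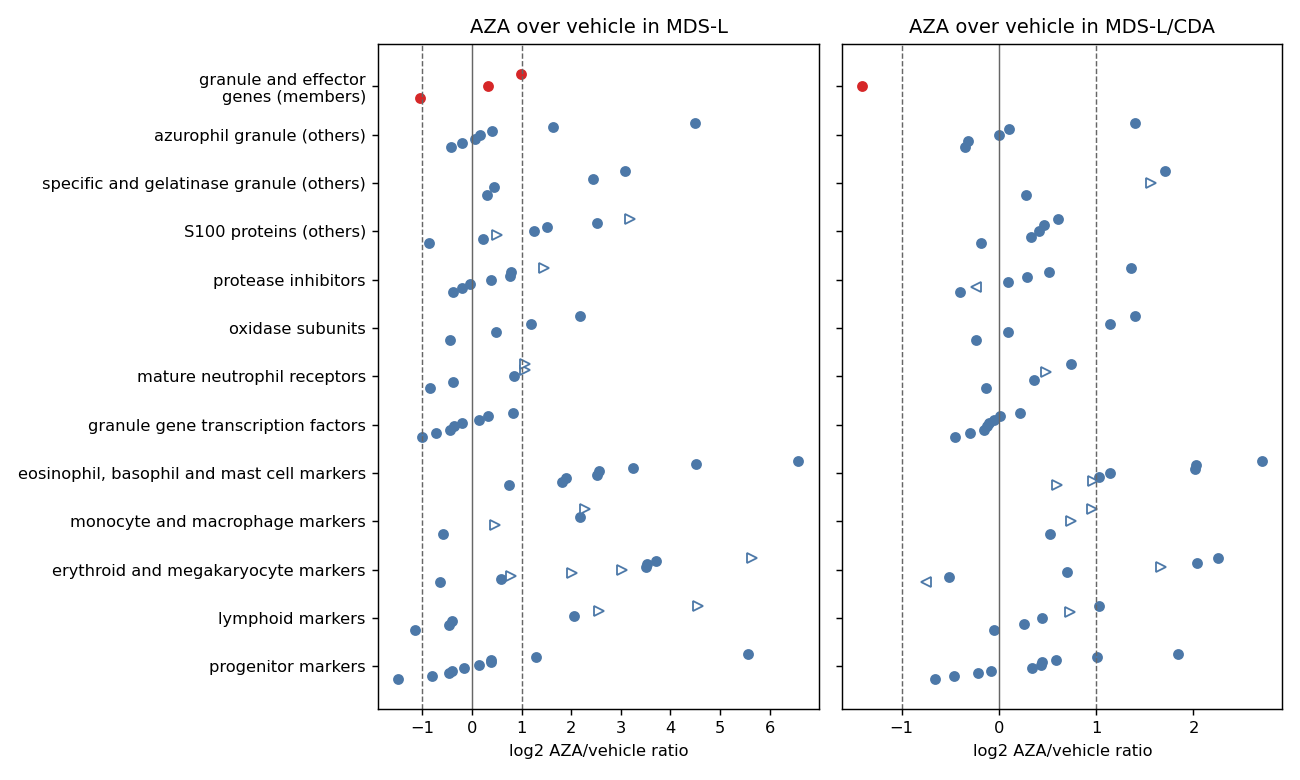
The log2 AZA/vehicle ratio (horizontal axis) of each tested gene of the members (red) and of 12 other gene lists (blue) in MDS-L (left) and MDS-L/CDA (right), with circles for genes measured on both arrays, triangles for bounds where 1 array was not well above background, and dashed lines at 2-fold. CTSG lies at -1.03 as the lowest of 3 red points in MDS-L and at -1.40 as the 1 red point in MDS-L/CDA, and 7 of the 8 eosinophil, basophil and mast cell markers lie past the upper line in MDS-L.

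Markers of other blood cells moved in the same arrays, and their part in the CTSG values was not tested. Eosinophil, basophil and mast cell markers gave 7 higher and 0 lower of 8 tested with AZA in MDS-L (median log2 ratio 2.54) and 5 higher and 0 lower of 7 in MDS-L/CDA (median 2.01 over the 5 measured on both arrays). PRG2, the eosinophil major basic protein, rose 95.6-fold in MDS-L and was at least 1.95-fold higher with AZA in MDS-L/CDA. CLC, the Charcot-Leyden crystal protein, rose 22.7-fold in MDS-L, and HDC, which makes histamine, rose 9.45-fold and 4.03-fold. CPA3, the mast cell carboxypeptidase, had signals of 630, 2234, 148 and 883 and rose 3.52-fold in MDS-L and 6.54-fold in MDS-L/CDA, so this mast cell protease rose where CTSG fell. Of the same 8 markers, 5 were lower in MDS-L/CDA than in MDS-L with vehicle and 6 with AZA, and 0 were higher. Of its 13 genes with a probe, 5 were dim on all 4 arrays. The summed signal of this list was 7039, 23327, 4041 and 8898 on the 4 arrays.

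Erythroid and megakaryocyte markers gave 6 higher and 0 lower of 9 tested in MDS-L and 3 higher and 0 lower of 6 in MDS-L/CDA. GATA1, the erythroid and megakaryocyte factor, rose 11.4-fold and 4.10-fold. VWF rose 11.5-fold and 4.78-fold by its brightest probe, and its other probes were dim on every array. HBG1, a fetal globin gene, was at least 49.9-fold higher in MDS-L (log2 of at least 4.07 by its other probe), and PPBP, a platelet chemokine, rose 13.02-fold. Their summed signal was 754, 2851, 739 and 1146, and 2 of 11 were dim on all 4 arrays. Monocyte markers gave 2 higher and 0 lower of 4 in MDS-L, CSF1R (at least 4.86-fold) and CD86 (4.55-fold), and 0 of 3 in either direction in MDS-L/CDA, with summed signals of 114, 388, 87.2 and 133 and 5 of 9 dim on all 4 arrays. Lymphoid markers gave 3 higher and 1 lower of 6 in MDS-L, led by CD3D (at least 23.5-fold), and 1 higher and 0 lower of 5 in MDS-L/CDA, with summed signals of 1042, 1163, 888 and 867 and 4 of 10 dim on all 4 arrays. The summed signal of the 9 members, most of it from CTSG, was 634, 353, 250 and 115.

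Progenitor markers were the check of the labelled myeloid line, and 10 of 11 were well above background on all 4 arrays. With AZA, 2 rose and 1 fell of 10 in MDS-L and 2 rose and 0 fell in MDS-L/CDA. KIT, the stem cell factor receptor, rose 47.3-fold in MDS-L and 3.58-fold in MDS-L/CDA by its brightest probe. Another KIT probe gave a log2 ratio of at least 2.38 in MDS-L and none in MDS-L/CDA, and a further one was dim on every array. GATA2 rose 2.46-fold and 2.01-fold. CD38, an ectoenzyme of maturing progenitors, had ratios of 0.359 and 0.725. The lines thus carried progenitor genes on every array, whereas MPO and ELANE, the defining genes of the promyelocyte, did not reach it on any.

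By likeness of pattern over the 4 arrays, the nearest genes to CTSG among 13961 candidates were ENST00000460876, ACTG1P4 and EIF3J, with root mean square differences of 0.15, 0.16 and 0.17 in log2 signal centred on each gene's mean. EIF3J, a translation initiation factor subunit, had signals of 686, 418, 324 and 115, in the same order of arrays as CTSG. ACTG1P4, an actin pseudogene, had signals of 743, 408, 357 and 117, and ENST00000460876, a transcript with no gene name in the files, 5110, 2379, 2191 and 775. None of the 3 is a granule gene of the lists used here, and a likeness over 4 points is a description.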

How the data were processed

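Total RNA from 4 groups of cells was hybridized to 1 one-colour (Cy3) array each. The authors deposited the scanner output of Agilent Feature Extraction 10.7.1.1, in which intensity is background-subtracted per spot and not normalized between arrays, and a value table of 51680 probes, also intensity on a linear scale, that behaves as quantile-normalized. The methods do not describe that step. Control spots were left out, and 16 of 58201 probes were left out for outlier flags. The log2 of processed signal, as a mean over spots of each probe, had the array's 75th percentile subtracted. A gene was represented by the probe with the highest mean signal. For a bound, a dim probe took the higher of its own signal and the array's lowest signal well above background. The number of arrays, 1 per group, limits the precision, and no test was made. Gene names and hg19 probe positions are those of the design.

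The members and the 12 other gene lists (132 genes, 125 with a probe) were chosen with earlier results of these data known. One further oxidase subunit is not reported here, so the counts of that list are incomplete. All members are named. From each list the text names at most 4 genes with the largest absolute log2 ratio or bound in either AZA comparison, and others are marked. For likeness of pattern, 3 genes are named.

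Alternatives were quantile normalization, no scaling, the median, the 75th percentile over probes well above background on all 4 arrays, normexp with an offset of 50, values from the authors' table, 2 other filters for dim probes, a 1.5-fold limit, 2-fold with a Z score of at least 2 (log2 ratio over the SD in 10 bins of signal), any probe of a gene, and keeping outlier spots. The study's methods call genes by ratio and Z score, but its formula is not given in the sources used here. The counting of calls was tested on simulated data with changes planted well past 2-fold in bright probes. It did not cover calls near 2-fold or dim probes. Normexp was run in limma 3.58.1 (R 4.3.3), and all else in Python 3.11.15 with numpy 2.4.6, pandas 2.3.3 and matplotlib 3.10.9.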

Additional observations from a re-analysis of the deposited data

Results flagged for a closer look

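NKG7, a granule membrane protein of cytotoxic lymphocytes and one of the lymphoid markers set beside the members, moved in opposite directions with AZA in the 2 lines. Its signal was 40.3 with vehicle and 18.3 with AZA in MDS-L, a log2 ratio of -1.15, and 24.9 and 46.6 in MDS-L/CDA, a log2 ratio of 1.03. The ratios differed by a log2 of -2.18 (MDS-L minus MDS-L/CDA), and with 1 array per group this difference was not tested.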

How the results depend on the processing

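CTSG stayed below a ratio of 1 in all 4 comparisons under each of 12 alternatives, but several of these could not move its ratio. The filters for dim probes, the 1.5-fold limit, the Z score and the use of any probe left it unchanged. These settings are included in the counts that follow, although CTSG has 1 probe, well above background on all 4 arrays. Its log2 ratio ranged from -1.58 to -0.85 for AZA in MDS-L (past 2-fold under 7 of 12), from -1.53 to -1.01 for AZA in MDS-L/CDA, from -1.62 to -1.10 between the lines with vehicle and from -1.98 to -1.24 with AZA, the last 3 past 2-fold under all 12. For AZA in MDS-L, the count of members past 2-fold was 1 as reported, 0 under quantile normalization, normexp, the authors' value table or with a Z score of at least 2, and 2 without a filter on dim probes (MPO higher and CTSG lower) or at 1.5-fold (S100A8 higher and CTSG lower). With the 75th percentile over probes well above background on all 4 arrays the count was again 1, but it was S100A8 (log2 1.17) in place of CTSG. For AZA in MDS-L/CDA it went from 1 to 2 without that filter (LTF higher), and between the lines with AZA from 1 to 2 without scaling (S100A8 lower) or without that filter (AZU1 higher). The ratios of all genes moved as well in these settings. In MDS-L the median log2 AZA ratio, -0.16 as reported, moved by -0.54 with median scaling and by 0.18 with the percentile over probes well above background. Normexp moved it by 0.06 in MDS-L and by -0.03 in MDS-L/CDA, where the CTSG log2 ratio went from -1.40 to -1.01. Between the lines, no scaling moved the median of all genes by -0.37 with vehicle and by -0.51 with AZA. What made each count change was not tested. Over the 6 other scalings or corrections, the share of all calls that were higher went from 52.7% to between 11.5% and 70.6% for AZA in MDS-L, from 45.2% to between 26.6% and 48.0% in MDS-L/CDA, from 42.8% to between 3.37% and 36.0% between the lines with vehicle and from 51.0% to between 7.11% and 46.5% with AZA. PRTN3 in MDS-L ranged from -0.21 to 0.51 and S100A8 from 0.22 to 1.17.

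Signals near background limit what the arrays can show for 8 of the 9 members. No paired analysis was possible because each group had 1 array, and leaving out an array was not possible for the same reason.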
